A study of Mus musculus with 2 samples.

Results

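Mediator, the general transcription factors and the nuclear RNA polymerases together start transcription, and binding of the zinc finger protein YY1 was examined at 106 of their genes in mouse fat cells. Members were taken by symbol from a RefSeq table of protein-coding genes (GRCm38.p6, the assembly that mm10 names): Med, Taf, Gtf2, Gtf3, Polr1, Polr2 or Polr3 followed by a number or letter of the family, plus Tbp. These were 106 of 21887 protein-coding genes: 30 Mediator genes, 21 TFIID genes, 27 genes of other factors, and 5, 13 and 10 genes of polymerases I, II and III. Taf1a, Taf1b, Taf1c and Taf1d, which encode factors of polymerase I, were counted with the other factors. The cells were mature adipocytes freed by collagenase from the inguinal (subcutaneous) fat of male wild-type C57 mice 8 to 10 weeks old. One library came from mice after 7 days of cold stress and 1 from mice kept at room temperature. The labels name the assay ChIP-seq, while their protocol describes CUT&Tag, in which an antibody guides a transposase to cut and tag the DNA beside the bound protein.

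Mediator is a large complex of head, middle, tail and kinase modules that carries signals from activators to RNA polymerase II. TFIID, made of the TATA-binding protein TBP and its associated factors (TAFs), recognises core promoters, after which TFIIA, TFIIB, TFIIE, TFIIF and TFIIH complete the initiation complex. Polymerase I makes ribosomal RNA, polymerase II makes messenger RNA, and polymerase III, recruited through TFIIIC, makes transfer RNA and other small RNAs. YY1 binds a short motif around ATGG and is known for binding close to transcription starts, in particular those of housekeeping genes.

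The cold list held 1259 peaks and the room temperature list 165. The number of fragments covering a summit (its pileup) was recovered from each peak's deposited fold enrichment and p-value. It had a median of 20 fragments in the cold list and 13 at room temperature. The lowest backgrounds of the lists put the cold library at 1.05 times the depth of the other, and absolute depths are unknown. With a single library in each condition nothing can be compared with a spread between replicates, no test was run, and every interval given covers counting error only. Whether libraries or animals were pooled is not stated in the labels. Names of cold peaks include a 4 and names of room temperature peaks a 30, numbers that the labels do not explain. None of 8 adipocyte marker genes, Adipoq, Pparg, Fabp4 and Plin1 among them, held a peak in either list. Of 12 marker genes of macrophages, fibroblasts, endothelium and lymphocytes, Pecam1 alone held one, after cold. These counts say nothing about how strongly the marker genes were expressed, so they do not check the cell type.

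A gene was taken to carry YY1 when a summit lay inside it or within 1 kb of either of its ends. After cold, 22 of the 106 members carried a peak (20.8%, exact 95% interval 13.5 to 29.7), where 6.42% of all protein-coding genes did. At room temperature 2 members did (1.89%, 0.229 to 6.65), where 0.864% of all protein-coding genes did. The cold share of the members was above that of all genes by more than its counting interval. This rests on the longer list: with only the 165 strongest cold peaks, as many as the room temperature list holds, 2 members were bound (1.89%), Med25 and Gtf3c6, and 0.905% of all genes. The room temperature interval included the share of all genes.

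**Figure D1:**
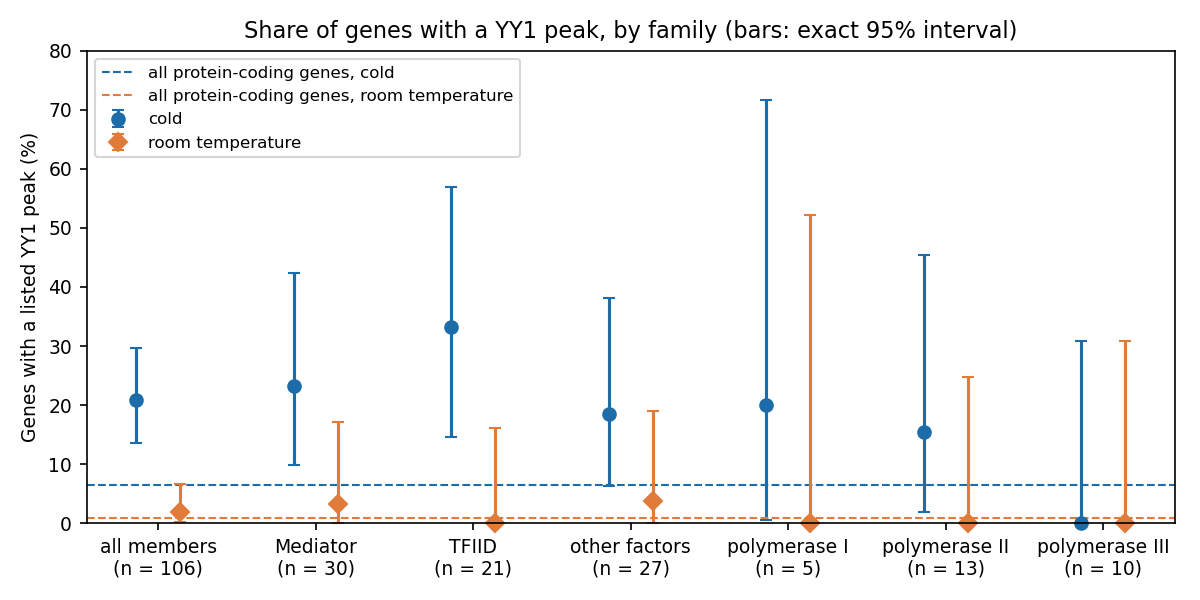
Share of genes with a listed YY1 peak (y axis, percent) for all 106 members and for each family (x axis), after cold (blue circles) and at room temperature (orange diamonds). Bars are exact 95% Clopper-Pearson intervals, and dashed lines mark the 6.42% and 0.864% of all protein-coding genes; the cold intervals of all members, Mediator and TFIID lie above the cold line.

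The YY1 motif was visible in the promoters of many bound members. It was searched for as AANATGGC on both strands (the reverse complement is GCCATNTT) in the RefSeq promoter sequences of GRCm38.p6, which run from 250 bases before to 50 bases after an annotated transcription start. Such a sequence was present for 92 members, 20 of them with a cold peak. The motif occurred in 10 of the 20 members with a cold peak (50%, 27.2 to 72.8) and in 7 of the 72 without one (9.72%, 4 to 19). Over all protein-coding genes with a promoter sequence it occurred in 531 of 1168 with a cold peak (45.5%, 42.6 to 48.4) and in 774 of 16324 without one (4.74%, 4.42 to 5.08). A match describes letters in this window and is not a measured binding site. Many summits lay outside the windows, where no sequence was searched. Only 6 member summits fell inside a window, and at 5 of these the window held the motif.

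The stretches around the motif are shown for the bound members, to let the bases beside the searched letters and the place of each match be compared. Each line gives 30 bases of RefSeq sequence (GRCm38.p6) on the strand that reads AANATGGC, with the motif in capitals.
Taf3, chr2:10048575-10048604, minus strand: gaggcggagcgagtccAAAATGGCggctct
Taf5, chr19:47067746-47067775, plus strand: gaggtggctcagccgcAAGATGGCggcgct
Taf6, chr5:138187197-138187226, minus strand: gtcagggggcggggccAAGATGGCgccgag
Taf8, chr17:47502259-47502288, minus strand: cacactacgcaagagcAAGATGGCtgacac
Taf4, chr2:179976636-179976665, minus strand: gcggcggcgaggaggaAAGATGGCggcggg
Med27, chr2:29346826-29346855, plus strand: cggctgtgacagctgcAACATGGCggacgt
Med29, chr7:28392653-28392682, minus strand: ggcgttctagcggaggAAAATGGCtgcgcc
Med25, chr7:44892480-44892509, minus strand: caaaatgccccgcacaAACATGGCcgtatc
Gtf3c6 first match, chr10:40257677-40257706, minus strand: gccgctgcccgtatccAAAATGGCatccac
Gtf3c6 second match, chr10:40257713-40257742, plus strand: cttccggccagaaagcAAGATGGCgacgcc
Gtf2e1, chr16:37539896-37539925, plus strand: tcaaggaaatcgtggcAAGATGGCgtccct

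In Taf3, Taf5, Taf6, Taf8, Med27, Med29 and Gtf3c6 the motif lay on the sense strand just after the transcription start. It began 21, 14, 16, 19, 32, 24 and 22 bases downstream of the start in this order. These were 7 of the 20 bound members with a promoter sequence (35%, 15.4 to 59.2). Of all genes with a promoter sequence, 20.1% of those with a cold peak shared this arrangement, against 1% of those without one. The remaining matches were placed otherwise. With the start base as 0, the motif began at -3 in Taf4 and at -69 in Med25, and on the antisense strand at -130 in Gtf2e1. Gtf3c6 held a second, antisense match at -24. In Taf3, Taf4, Taf5 and Med29 the match went on into the longer consensus, any base and then GC. Of the 11 distinct matches, 10 lay inside the cold peak, with their middles 2 to 82 bp from its summit, in whole bases. The exception was Taf4, whose peak did not reach the motif.

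The motif did not always come with a listed peak. The same sense arrangement, starting 22, 29, 34 and 16 bases after the start, was present in Gtf2b, Med21, Polr3e and Taf9b, which had none in either list. These encode the initiation factor TFIIB, a middle-module Mediator subunit, a polymerase III subunit and a paralogue of the TFIID subunit gene Taf9. Their stretches are given in the same form.
Gtf2b, chr3:142765253-142765282, plus strand: tgttggcggagccgcgAAGATGGCgtcgac
Med21, chr6:146642592-146642621, plus strand: ccttgcgtgcgtggtgAACATGGCggatag
Polr3e, chr7:120917796-120917825, plus strand: gagtttctccagcaggAACATGGCcgctgc
Taf9b, chrX:106221129-106221158, minus strand: aagagcatcaaagttcAAGATGGCtgacca

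Of all members with a sense motif downstream of the start, 7 of 11 had a cold peak (63.6%, 30.8 to 89.1), and of all protein-coding genes of this kind 235 of 399 did (58.9%, 53.9 to 63.8). Without this arrangement the shares were 13 of 81 members (16%, 8.83 to 25.9) and 5.46% of all genes with a promoter sequence. In Med31, Polr2i and Taf7l, which had no peak, the match lay upstream of the start. Taf9b held a further sense match, at -221 from another of its annotated starts.

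**Figure D2:**
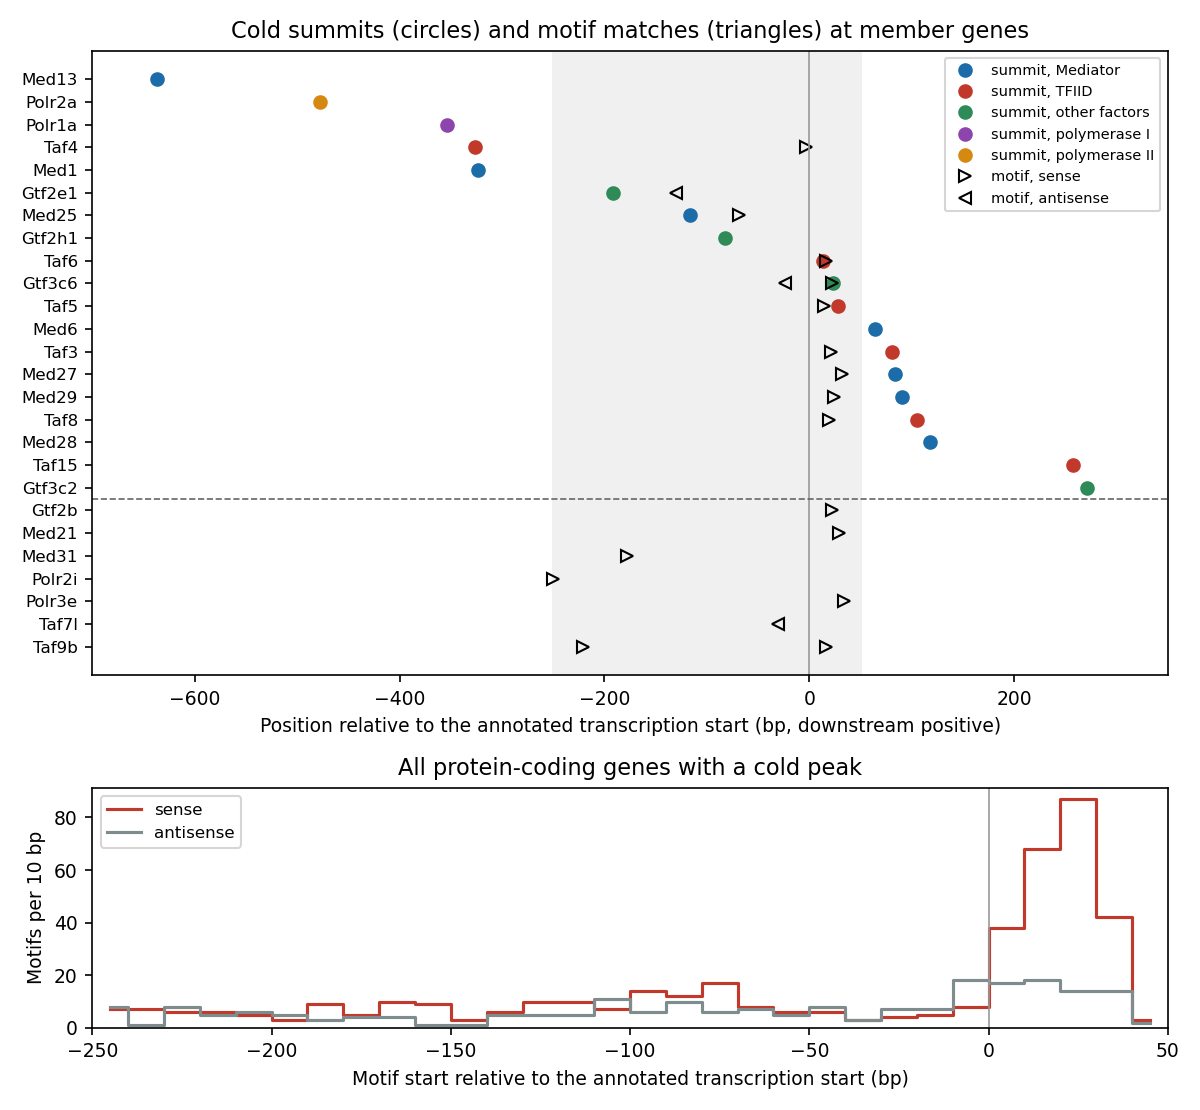
Upper panel: cold summits (circles, coloured by family) and AANATGGC matches (triangles pointing along the strand) relative to the annotated transcription start (x axis, bp); the grey band is the sequence searched, and the 7 genes under the dashed line hold the motif without a peak. Lower panel: matches per 10 bp in the promoters of genes with a cold peak and a promoter sequence. There 238 of 424 sense matches and 65 of 214 antisense matches began downstream of the start.

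TFIID had the highest share of bound genes among the families, 7 of 21 after cold (33.3%, 14.6 to 57) and 0 of 21 at room temperature. The bound genes were Taf2, Taf3, Taf4, Taf5, Taf6, Taf8 and Taf15. All family intervals overlapped, so the order of the families is within counting error. At Taf8, a histone-fold subunit that joins Taf2 to the rest of TFIID, the summit carried 35 fragments after cold (24.4 to 48.7; chr17:47502003-47502366), 105 bp downstream of the start. Taf5 and Taf6 encode core subunits that TFIID holds in 2 copies. Their summits lay 28 and 13 bp downstream of the start, with 29 fragments at Taf5 (19.4 to 41.6; chr19:47067614-47067923) and 27 at Taf6 (17.8 to 39.3; chr5:138186992-138187406). The middles of the matches that begin 14 and 16 bases after the start were 10 and 6 bp from these summits. At Taf3, whose protein reads a histone mark of active promoters, there were 26 fragments after cold (17 to 38.1; chr2:10048260-10048676).

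The other bound TFIID genes carried weaker summits. Taf15, which encodes an RNA-binding protein found with a part of TFIID, had 19 fragments after cold (11.4 to 29.7; chr11:83473173-83473466), 257 bp downstream of its start. Its promoter window held no motif but ends before this summit. Taf4, a core subunit gene, had 15 (8.4 to 24.7; chr2:179976802-179977281) at 326 bp upstream of its annotated start. Taf2, a promoter-contacting subunit gene, had 13 (6.92 to 22.2; chr15:55071948-55072227), 112 bp inside one end of the gene. None of the 7 was listed at room temperature. A missing entry is not a measured 0, since the lowest pileup listed there was 6 fragments.

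Related genes were not all bound. Taf4, Taf5 and Taf6 had a cold peak, while Taf4b, Taf5l and Taf6l had none. Taf7, Taf7l and Taf7l2 and the pair Taf9 and Taf9b had none, and neither did Tbp, Taf1 (the largest TFIID subunit), Taf10, Taf11, Taf12 or Taf13. Outside TFIID, Med13 and Gtf2a1 had a peak and their relatives Med13l and Gtf2a1l had none. The share of bound genes differed little when Taf5l, Taf6l and Taf15, counted with TFIID by their symbols, were left out: 6 of 18 genes.

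Of the 30 Mediator genes, 7 carried a cold peak (23.3%, 9.93 to 42.3) and 1 a room temperature peak (3.33%, 0.0844 to 17.2). The bound genes came from all modules: Med6 of the head, Med1 of the middle, Med13 of the kinase module, and Med25, Med27, Med28 and Med29, which are placed in or next to the tail. The central subunit genes Med14 and Med17 had no peak. The strongest was at Med25, which encodes a subunit that contacts activators. Its summit carried 52 fragments after cold (38.8 to 68.2; chr7:44892359-44892751) and 11 at room temperature (5.49 to 19.7). It lay 116 bp upstream of the annotated start, or 165 bp inside the outer end of the gene, and 50 bp from the middle of the motif.

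Med1, the subunit through which nuclear receptors recruit Mediator and which fat cells need for PPARγ, had 27 fragments after cold (17.8 to 39.3; chr11:98193001-98193388) and no room temperature entry. Its summit lay 323 bp upstream of the annotated start and 84 bp inside the outer gene end. Med13, which links the kinase module to the core complex, had 21 (13 to 32.1; chr11:86358083-86358439). Its summit stood 637 bp upstream of the start, the farthest from a gene end among summits outside a member gene. The motif was found in neither promoter window, and both summits lay outside those windows.

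The other Mediator summits were small. Med27 and Med29 had 17 fragments each (9.9 to 27.2; chr2:29346776-29347045 and chr7:28392419-28392796), 84 and 91 bp downstream of their starts. Med6 had 15 (8.4 to 24.7; chr12:81594805-81595094) at 64 bp and Med28 10 (4.8 to 18.4; chr5:45520237-45520491) at 118 bp. Med28 had the weakest member summit of the cold list. Med27 and Med29 held the motif after the start, whereas Med6 and Med28 held none.

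The strongest member summit belonged to Gtf3c6, among the other factors. Of the 27 genes of this family, 5 carried a peak after cold (18.5%, 6.3 to 38.1) and 1 at room temperature (3.7%, 0.0937 to 19). These intervals include the shares of all protein-coding genes, 6.42% after cold and 0.864% at room temperature. With each summit given to the nearest gene end only, the cold count was 3 (11.1%). Gtf3c6 encodes the smallest subunit of TFIIIC, the factor that brings polymerase III to transfer RNA genes. Its summit carried 76 fragments after cold (59.9 to 95.1; chr10:40257388-40258099) and 18 at room temperature (10.7 to 28.4), and ranked 26 in the cold list of 1259 and 46 in the room temperature list of 165. It lay 23 bp downstream of the start after cold and 16 bp at room temperature. The middle of the sense motif was 2 bp and that of the antisense one 43 bp from the cold summit.

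A second summit reached Gtf3c6 at its far end, with 46 fragments after cold (33.7 to 61.4; chr10:40246916-40247429) and 11 at room temperature (5.49 to 19.7). It lay 564 bp outside Gtf3c6, 10425 bp from the start of that gene, and 98 bp upstream of a start of Rpf2, a ribosome assembly gene. The Gtf3c6 gene thus counted once, through either summit.

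Gtf2e1, the gene of the larger TFIIE subunit, had 22 fragments after cold (13.8 to 33.3; chr16:37539800-37540166). Gtf2a1, a TFIIA subunit gene, had 18 (10.7 to 28.4; chr12:91588406-91588664), 1099 bp downstream of the nearest annotated start and deeper inside its gene than any other member summit. Gtf2h1, the gene of the p62 subunit of TFIIH, had 15 (8.4 to 24.7; chr7:46795839-46796145). Gtf3c2, a second TFIIIC gene, had 13 (6.92 to 22.2; chr5:31179708-31180046) at 271 bp downstream of its start. None of these 4 was listed at room temperature, and Gtf2b and the genes of TFIIF and SL1 had no peak in either list.

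The polymerase families gave small counts of genes that carried YY1. After cold these were 1 of 5 polymerase I genes (20%, 0.505 to 71.6), 2 of 13 polymerase II genes (15.4%, 1.92 to 45.4) and 0 of 10 polymerase III genes (0 to 30.8). At room temperature all 3 counts were 0. The cold intervals are wide, and each holds both the 6.42% of all genes and the 20.8% of all members. The bound genes included the largest subunit genes Polr1a and Polr2a but not Polr3a. Polr1a had 21 fragments after cold (13 to 32.1; chr6:71908473-71908854), 354 bp upstream of its start. Polr2a, whose protein carries the tail domain phosphorylated during transcription, had 14 (7.65 to 23.5; chr11:69759006-69759284) at 478 bp upstream. Polr2d, which encodes a subunit of the detachable stalk, had 13 (6.92 to 22.2) at 73 bp inside one end of the gene, on chromosome 18. With the 7 shared subunits counted for every polymerase that contains them, the bound genes were 1 of 10 for polymerase I (10%), 2 of 13 for polymerase II and 0 of 17 for polymerase III.

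**Figure D3:**
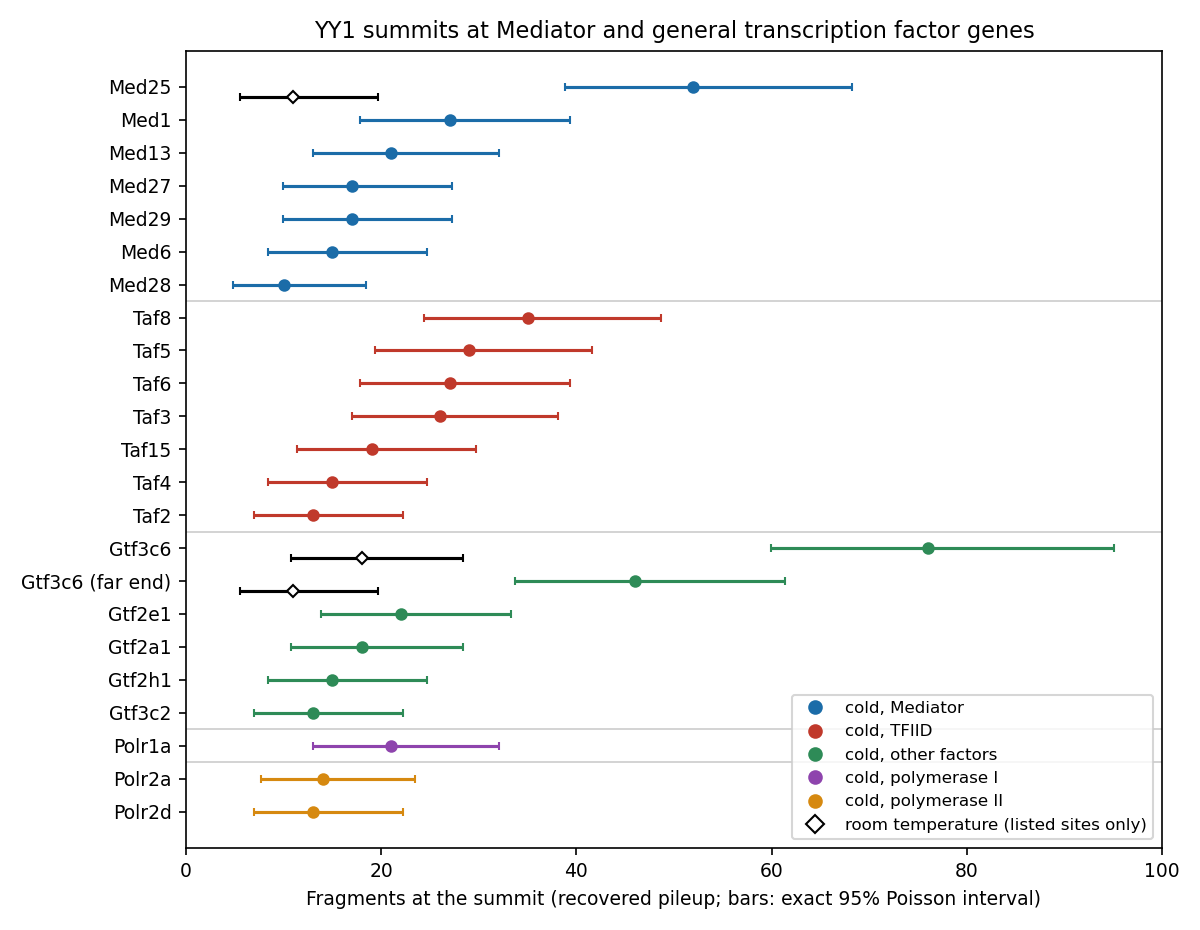
Fragments at the summit (x axis) of the 23 cold summits that reached a member, grouped by family (coloured circles), with the 3 room temperature summits as open diamonds below their cold counterparts. Bars are exact 95% Poisson intervals; cold values run from 10 at Med28 to 76 at Gtf3c6, and in each of the 3 pairs the intervals do not overlap.

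Some of these summits sat at the start of a neighbouring gene. Of the 23 cold member summits, 7 also reached another protein-coding gene (30.4%), and of all 1191 cold summits that reached any gene 290 reached at least 2 (24.3%). The Polr1a summit lay 63 bp downstream of the start of Ptcd3, a mitochondrial translation gene that runs the other way, and 40.5 bp from the middle of a sense motif beginning 19 bases after that start. The Gtf2e1 summit lay 87 bp downstream of the start of Rabl3, and the antisense motif of Gtf2e1 is the same stretch of DNA as a sense motif 18 bases after the Rabl3 start. The far summit of Gtf3c6 lay 28.5 bp from the middle of a motif in the Rpf2 promoter. These 3 summits were nearer to the neighbour's start than to that of the member. The 2 stretches not shown above are given with their neighbour genes.
Ptcd3, chr6:71908730-71908759, minus strand: ctccgcgaagagtccaAAGATGGCggcggc
Rpf2, chr10:40247099-40247128, minus strand: aacgccatgccttcccAAAATGGCcgccag

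At the other 4 shared summits no motif was found in the neighbour's promoter. Taf6 shared its summit with Cnpy4, Med29 with the elongation factor gene Paf1, Gtf2h1 with Hps5 and Polr2a with Slc35g3. The Taf6 and Med29 summits were 13 and 91 bp from the members' own starts and 322 and 397 bp upstream of those of Cnpy4 and Paf1. When each summit was given to the gene with the nearest end only, with the 1 kb limit kept, Gtf2e1, Gtf2h1 and Polr1a were no longer reached and the other 19 bound members were (17.9%), beside 5.18% of all genes. Which of 2 genes a shared summit serves was not tested.

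For the strongest cold summit of each family the whole promoter of 300 bases is shown, with motif matches in capitals, because these windows differ in where the summit falls. The summit lay 23 bp downstream of the start in Gtf3c6 and 116 bp upstream in Med25, both inside the window. It lay 105 bp downstream in Taf8, past the end of the window. In Polr1a and Polr2a the summit was farther upstream than the window, and the motif was not found in it, nor was its ATGGC core. All sequences are from RefSeq (GRCm38.p6), in the direction of transcription.
Med25, chr7:44892375-44892674, minus strand: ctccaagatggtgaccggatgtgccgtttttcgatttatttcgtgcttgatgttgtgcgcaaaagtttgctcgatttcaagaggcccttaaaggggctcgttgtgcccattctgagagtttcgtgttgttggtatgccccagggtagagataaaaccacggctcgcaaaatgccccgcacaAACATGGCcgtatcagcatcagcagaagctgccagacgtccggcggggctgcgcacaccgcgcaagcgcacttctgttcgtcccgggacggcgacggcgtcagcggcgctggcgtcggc
Taf8, chr17:47502242-47502541, minus strand: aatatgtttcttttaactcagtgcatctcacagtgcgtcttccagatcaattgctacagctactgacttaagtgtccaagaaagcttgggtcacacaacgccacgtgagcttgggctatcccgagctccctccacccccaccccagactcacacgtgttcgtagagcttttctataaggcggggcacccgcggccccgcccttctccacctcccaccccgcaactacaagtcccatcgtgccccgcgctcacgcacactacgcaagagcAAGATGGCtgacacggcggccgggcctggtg
Gtf3c6, chr10:40257663-40257962, minus strand: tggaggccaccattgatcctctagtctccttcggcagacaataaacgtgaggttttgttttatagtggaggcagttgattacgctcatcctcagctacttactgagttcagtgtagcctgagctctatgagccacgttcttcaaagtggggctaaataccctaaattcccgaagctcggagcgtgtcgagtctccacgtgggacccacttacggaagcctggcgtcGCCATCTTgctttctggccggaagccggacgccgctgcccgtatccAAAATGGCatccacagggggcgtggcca
Polr1a, chr6:71908803-71909102, plus strand: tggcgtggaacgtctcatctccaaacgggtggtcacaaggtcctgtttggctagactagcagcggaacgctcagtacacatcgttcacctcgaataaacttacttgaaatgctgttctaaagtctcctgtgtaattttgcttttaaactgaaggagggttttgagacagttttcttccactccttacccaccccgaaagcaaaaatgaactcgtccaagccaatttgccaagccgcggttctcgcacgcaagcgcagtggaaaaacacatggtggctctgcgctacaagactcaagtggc
Polr2a, chr11:69758584-69758883, minus strand: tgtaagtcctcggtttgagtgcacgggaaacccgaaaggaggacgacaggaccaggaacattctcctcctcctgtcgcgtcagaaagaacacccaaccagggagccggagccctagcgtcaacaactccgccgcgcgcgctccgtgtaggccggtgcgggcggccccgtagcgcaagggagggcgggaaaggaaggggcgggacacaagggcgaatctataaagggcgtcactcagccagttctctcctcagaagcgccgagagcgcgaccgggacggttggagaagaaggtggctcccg

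Over the whole set the member summits were of ordinary strength. The 23 cold summits had a median of 19 fragments (quartiles 15 and 27), beside 20 (15 and 29) for the whole cold list. Their median width was 357 bp, against 366 bp. Of the 21 summits whose gene had an annotated start in the promoter table, 19 lay within 1 kb of it, 11 downstream and 8 upstream, at a median of 116 bp. A summit counted only inside a gene or within 1 kb of its ends. Nearness to starts is thus fixed in part by this rule. By family the median was 17 fragments at Mediator, 26 at TFIID and 20 at the other factors, and the ranges overlapped. The 22 bound members had a median gene length of 26.2 kb and the 84 others of 14.7 kb, beside 22.9 kb for all genes with a cold peak and 17.2 kb for all genes. A summit anywhere inside a gene counts, and the part of gene length in which members carried a peak was not tested.

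Member promoters were rich in CpG, a feature shared with housekeeping genes. The median promoter held 23 CpG in bound members and 22 in the others, beside 13 over all protein-coding genes and 21.5 over all genes with a cold peak. Among promoters with at least 22 CpG, 12 of 49 member genes had a cold peak (24.5%, 13.3 to 38.9) and 10.9% of 5330 protein-coding genes. Below that content it was 8 of 43 member genes (18.6%, 8.39 to 33.4) and 4.83% of 12162. In both classes the lower end of the members' interval lay above the share of all genes. Each class spans a range of CpG contents, which was not matched between members and all genes. The part of CpG content in the counts was not tested, and expression was not measured here.

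Binding in the 2 conditions could be set side by side at 3 summits, those of Med25 and Gtf3c6. At the start of Gtf3c6 there were 76 fragments after cold and 18 at room temperature, a ratio of 4.22 (2.5 to 7.5). At Med25 there were 52 and 11, a ratio of 4.73 (2.44 to 10), and at the far summit of Gtf3c6 46 and 11, a ratio of 4.18 (2.13 to 8.95). All 3 were higher after cold by more than counting error. Other pairs of sites listed in both libraries, with a background of at most 10 at each site, numbered 151. Where several cold peaks met a room temperature peak, the one with the most fragments was taken. The median ratio of these pairs was 3.3 (quartiles 2.6 and 4.14), and 36 of them had a ratio at least as high as the lowest of the 3 member ratios. By pileup the members' ratios were thus above the upper quartile of the other pairs, only just so at the far summit of Gtf3c6. Their intervals all include the median. By the deposited fold enrichment the ratios were 4.46 at the start of Gtf3c6, 4.25 at Med25 and 2.95 at the far summit. The summits moved by 7, 37 and 8 bp between the libraries.

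The 3 summits listed at room temperature were also the 3 strongest member summits of the cold list, with ranks 26, 78 and 133. Of the 135 cold peaks at least as strong as the weakest of them, 83 were listed at room temperature (61.5%). The other 20 member summits ranked from 244 to 1158. Of the 915 cold peaks between their strongest and weakest, 60 were listed at room temperature (6.56%). The members listed in both libraries were thus those with the strongest cold summits.

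**Figure D4:**
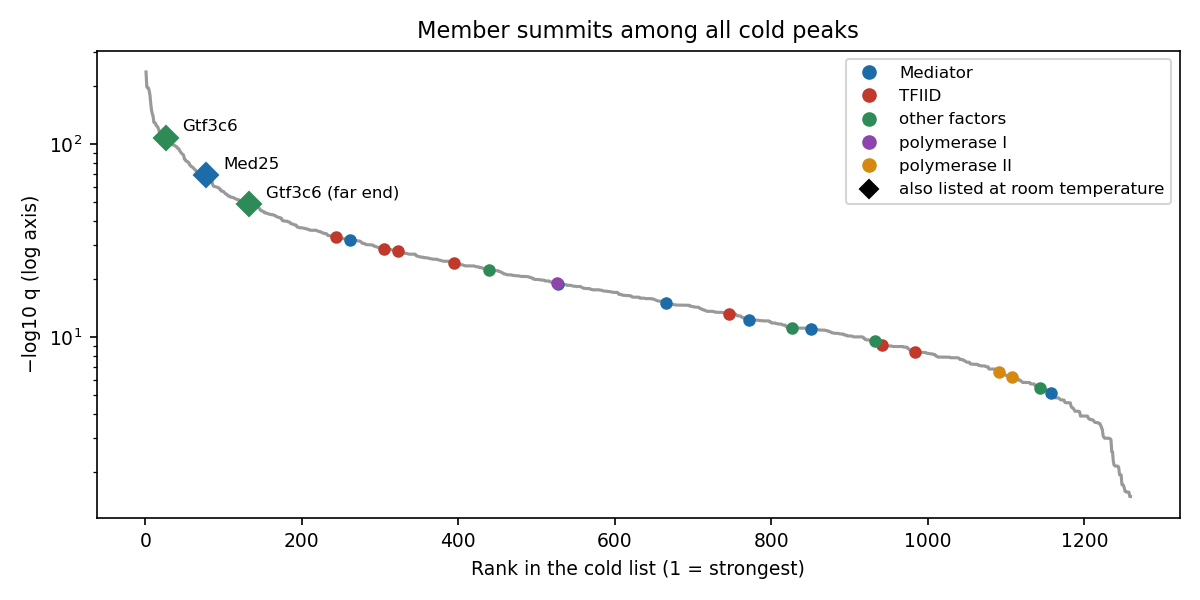
The −log10 q (y axis, log scale) of all 1259 cold peaks in order of rank (x axis, grey line), with the 23 member summits coloured by family. Diamonds mark the 3 summits also listed at room temperature, at ranks 26, 78 and 133; the other 20 lie from rank 244 to 1158.

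The rest of the transcription machinery was read from a list of 56 genes outside these families. After cold 7 of the 56 had a peak (12.5%, 5.18 to 24.1), beside the 6.42% of all genes, which this interval includes, and 0 had one at room temperature (0 to 6.38). Of these, 5 were among the 24 elongation genes. Supt5, a subunit of the elongation factor DSIF, was the strongest with 56 fragments (42.3 to 72.7; chr7:28338668-28339079). Nelfa and Nelfb, subunits of the pausing factor NELF, had 24 (15.4 to 35.7) and 13 (6.92 to 22.2). Ccnt2, a cyclin of the elongation kinase P-TEFb, had 24 (15.4 to 35.7), and Paf1 had the 17 it shares with Med29. The Nelfb summit also reached Stpg3.

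The remaining 2 were Drap1, part of the TBP repressor NC2, with 20 fragments (12.2 to 30.9) and Znrd1, a polymerase I subunit gene under its older symbol, with 7 (2.81 to 14.4). Both summits also reached another gene, AI837181 at Drap1 and Znrd1as, which lies antisense, at Znrd1. The Mediator kinase genes Cdk8, Cdk19 and Ccnc had none, nor did the 5 TFIIH genes outside Gtf2h, Ercc2, Ercc3 and Cdk7 among them. None of 10 polymerase III genes such as Brf1, Bdp1 and Maf1 had a peak, as with the 10 Polr3 members, and none of the 4 genes of mitochondrial transcription.

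The 1 kb limit separated summits that lay well apart. The member summit outside a gene and nearest to the limit was that of Med13, at 637 bp. The first member past it was Tbp, with a summit 1649 bp upstream of its start that reached the proteasome gene Psmb1 (chr17:15498054-15498437). That summit was in both lists, with 33 fragments after cold (22.7 to 46.3) and 15 at room temperature (8.4 to 24.7).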

How the data were processed

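YY1 binding was profiled in 2 libraries, 1 per condition, by CUT&Tag per the labels' protocols. The submitters' processing notes name mm10 and the tools MACS2, BWA, SAMtools, deepTools and DESeq2, without their versions or settings. For each library the authors deposited a list of peaks, each with a score, a fold enrichment (a linear ratio), a −log10 p and a −log10 q. Pileups were recovered as the whole number that satisfied fold = (pileup + 1) / (background + 1) and the Poisson p, within 0.0002 on the −log10 p scale at all 1259 cold and 165 room temperature peaks. Steps were checked on simulated data. Intervals are exact 95% Poisson, Clopper-Pearson or, for ratios, conditional binomial. Depth ratio assumes like processing of both libraries. Peaks of both lists were matched by at least 1 bp. Coordinates are mm10, 1-based; the gene table gives outer gene ends only, so exons and introns were not told apart. The promoter table gave strand and starts. No p-value was computed. The members and lists were chosen with earlier results of these data known. All members with a peak, central members without one, and companion genes with a peak are named. Alternatives covered the window, gene assignment, peak threshold, family membership, scaling and motif. Python 3.11.15, scipy 1.17.1 and pandas 2.3.3 were used.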

Additional observations from a re-analysis of the deposited data

How the results depend on the processing

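Of 127 values under an alternative, 116 stayed close to the reported value and 11 moved; a count was taken as close within 1.5 times, so that any step to or from 0 moved, and a share or ratio within the interval of the reported one. Members bound after cold numbered 20 to 23 under the planned assignments and thresholds, apart from 2 when only the 165 strongest cold peaks were kept, where 0.905% of all genes were bound. For transcription starts they were 19 of 92. With the nearest gene end only, the bound genes were 3 for other factors and 0 for polymerase I, both with the 1 kb limit and with none. With no limit polymerase III had 1, Polr3gl, from a summit 5.65 kb away, and 20 members were bound. The settings by transcription start and by nearest end with the limit, the split by CpG and the comparison with pairs outside the members were chosen after seeing the data. Within 3 kb, TFIID had 1 at room temperature (Tbp) and 100% of cold member summits lay near a gene end. Among members with a promoter sequence, the longer motif was found in 20% of bound ones and 2.78% of the others. The ATGGC core was found in 70% and 40.3%. Over all genes with a promoter sequence, the longer motif was found in 26.1% of those with a cold peak and 0.943% of those without. For the core these shares were 69.9% and 40.8%. A reciprocal overlap of 50% gave no ratio at the start of Gtf3c6, where the cold peak is 712 bp wide and the room temperature peak 282 bp. No paired analysis was possible because there was a single library on either side, and none could be left out. Depth and the missing replicates limit each comparison.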

Other observations

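Most members without a cold peak were far from any. After Tbp, the nearest were Taf6l with a summit at 3.3 kb, which reached the mRNA export gene Nxf1 and Tmem223 with 18 fragments (10.7 to 28.4), then Med22 and Polr3gl, each with one at 5.65 kb, Gtf2ird2 at 5.74 kb and Gtf2f1 at 5.96 kb. The next were Polr3f at 14.3 kb and Polr2c at 19 kb.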
